A study of Rattus norvegicus with 8 samples.

Results

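Potassium channels set the resting potential of neurons and glia, shape the action potential and limit repetitive firing. Voltage-gated channels are built from pore-forming subunits that open on depolarization, with silent subunits and auxiliary proteins that modify them, while other families open on intracellular calcium or sodium, pass current inward, or conduct at rest through tandem-pore subunits. In the dentate gyrus (DG), granule cells fire sparsely, and their leak, inward rectifier and voltage-gated potassium currents contribute to that restraint. The genes described here are those whose array name begins with Kcn, leaving out the A-type subunit genes (Kcnd), their KChIP partners (Kcnip) and Kcnj10. They number 80 of the 35199 gene names on the array, on 95 of 43379 non-control spots, in 18 subfamilies.

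RNA came from the DG of 8 adult female Sprague-Dawley rats of 150 to 200 g, all ovariectomized (OVX) and all taken through kainic acid status epilepticus (SE). Of these, 4 had been injected with oil (COS, the seizured controls) and 4 had received 17β-estradiol (E2) replacement (CES), and the rats without SE were not analysed here. According to the sample records, E2 was given as 4 doses of 2 μg, before and after SE, kainic acid was given at 16 mg/kg, and SE was stopped after 5 h with pentobarbital. The methods of the study differ from these records: they give a lower kainic acid dose, place every E2 injection before SE, name diazepam, and give conflicting times of tissue collection, so the interval between SE and collection is not settled. Each rat is 1 replicate, labeled with Cy3 (rats 1 and 3 of each group) or Cy5 (rats 2 and 4), and each of the 4 arrays carried a pair of rats of the same group.

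A level is the log2 of the background-subtracted signal of a gene relative to the median of the valid spots in the same channel, where a valid spot has a foreground at least 2 times its background. Levels of different genes come from different probes and are not set against each other. Between 32381 and 38553 spots were valid in a COS rat and between 30690 and 35352 in a CES rat, no spot was saturated, and the number of rats limits the precision: the median standard error (s.e.) of a difference over all genes was 0.20 on the log2 scale. On this scale the median of all 21332 genes tested was lower in CES than in COS by a log2 difference of -0.25, so differences are also read relative to that value. CES rat 2 stood apart from its group. Over all genes it correlated at 0.974 to 0.983 with the 4 COS rats and at 0.955 to 0.964 with the other CES rats, while CES rats 1, 3 and 4 correlated at 0.933 to 0.944 with the COS rats. Results are therefore given with and without it where it bears on them. Where it was the CES rat nearest to COS, leaving it out widens a plain difference of means, which the dye term can alter. A larger value without it is then no added support.

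Of the 80 genes, 61 were valid in all 8 rats and were tested, and the spot of 40 of these was well above background in every rat. The other 19 included Kcna3, Kcna7, Kcna10, Kcne1, Kcne3, Kcne4, Kcnf1, Kcnh5, Kcnh8, Kcnj1, Kcnj2, Kcnj15, Kcnk15, Kcnk18, Kcnmb1, Kcnq1, Kcnrg and Kcnv2. In 13 of the 19 no rat showed a spot well above background. Among the rest Kcnj1, an inward rectifier of epithelia, was well above background in 1 COS rat and no CES rat, with a bound of 1.97-fold for COS over CES. COS rat 3 was at 0.34, but COS rats 2 and 4, at -3.77 and -3.76, lay within the CES range of -5.60 to -3.38. Kcne1, an auxiliary subunit, was well above background in 2 COS rats and no CES rat, with a bound of 1.45-fold. Its values overlapped, from -4.07 to -0.67 in COS and from -3.95 to -1.80 in CES. These bounds carry no test and are not minimum differences between the groups. They set the mean of the brighter group against the dimmest signal that counted as above background on each array, or the probe's own signal where that was higher. Spots well above background numbered 19543 to 23368 in the Cy3 rats and 25020 to 28488 in the Cy5 rats. A count of 2 rats of 4 above background may therefore follow the dye.

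In CES, 13 of the 61 genes tested were higher than in COS and 8 were lower (limma, two-sided, adjusted p under 0.05 over all genes). This was 21.3% higher and 13.1% lower, where 5.8% of all genes were called higher, 28.3% lower and 34.1% either way. The higher genes were Kcng2, Kcnh3, Kcnj6, Kcnt2, Kcnn2, Kcnc1, Kcnj16, Kcnv1, Kcnmb4, Kcng4, Kcnab2, Kcnab1 and Kcnj11, and the lower genes were Kcnn4, Kcnk10, Kcnj8, Kcnk13, Kcnk6, Kcnh4, Kcnk5 and Kcnj4. The median difference over the 61 genes was 0.12 on the log2 scale, or 0.37 counted from the all-gene median, and 48 of the 61 lay above that median. Values of the 4 CES rats lay above those of all 4 COS rats in 2 genes, both called, and below them in 5 genes, of which Kcnj8, Kcnk10, Kcnk13 and Kcnk6 were called and Kcna1 was not, where 1.61% of all genes did not overlap with CES higher and 19.8% with CES lower.

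The balance of higher and lower calls depended on how the channels were scaled. After loess within arrays and Aquantile scaling between them, which put the median difference of all genes at 0.06 on the log2 scale, 26 of the 61 genes were called higher and 1 lower, where 14.3% of all genes were called higher and 8.87% lower. All 13 genes called higher were still called higher under that scaling. Also called higher there were 13 genes not called above, among them Kcnab3, Kcnb2, Kcnc2, Kcng1, Kcnh2, Kcnj3, Kcnj14, Kcnk2, Kcnk12, Kcnn1 and Kcnq5l. Of the 8 called lower, only Kcnk10 was still called, and the other 7 kept their direction. Percentages in brackets are the shares of all genes called higher and lower. Without CES rat 2 the counts were 15 higher and 10 lower (8.56% and 32.3%), including all 21 genes called with it. Every other rat lowered the counts when left out. They were 7 and 4 (2.38% and 16.9%) without COS rat 1 and 10 and 5 (5.04% and 18.5%) without COS rat 2. They were 6 and 1 (1.16% and 4.14%) without COS rat 3 and 6 and 6 (2.43% and 23.2%) without COS rat 4. They were 8 and 1 (2.38% and 11.3%) without CES rat 1. Without CES rat 3 they were 11 and 6 (5.37% and 32.8%), and without CES rat 4 they were 11 and 7 (5.53% and 30.7%). Kcnk10 was the single lower gene without COS rat 3 and without CES rat 1. In each of the 13 higher genes CES rat 2 was the CES rat nearest to the COS rats, and so it was in 3 of the 8 lower genes.

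**Figure D1:**
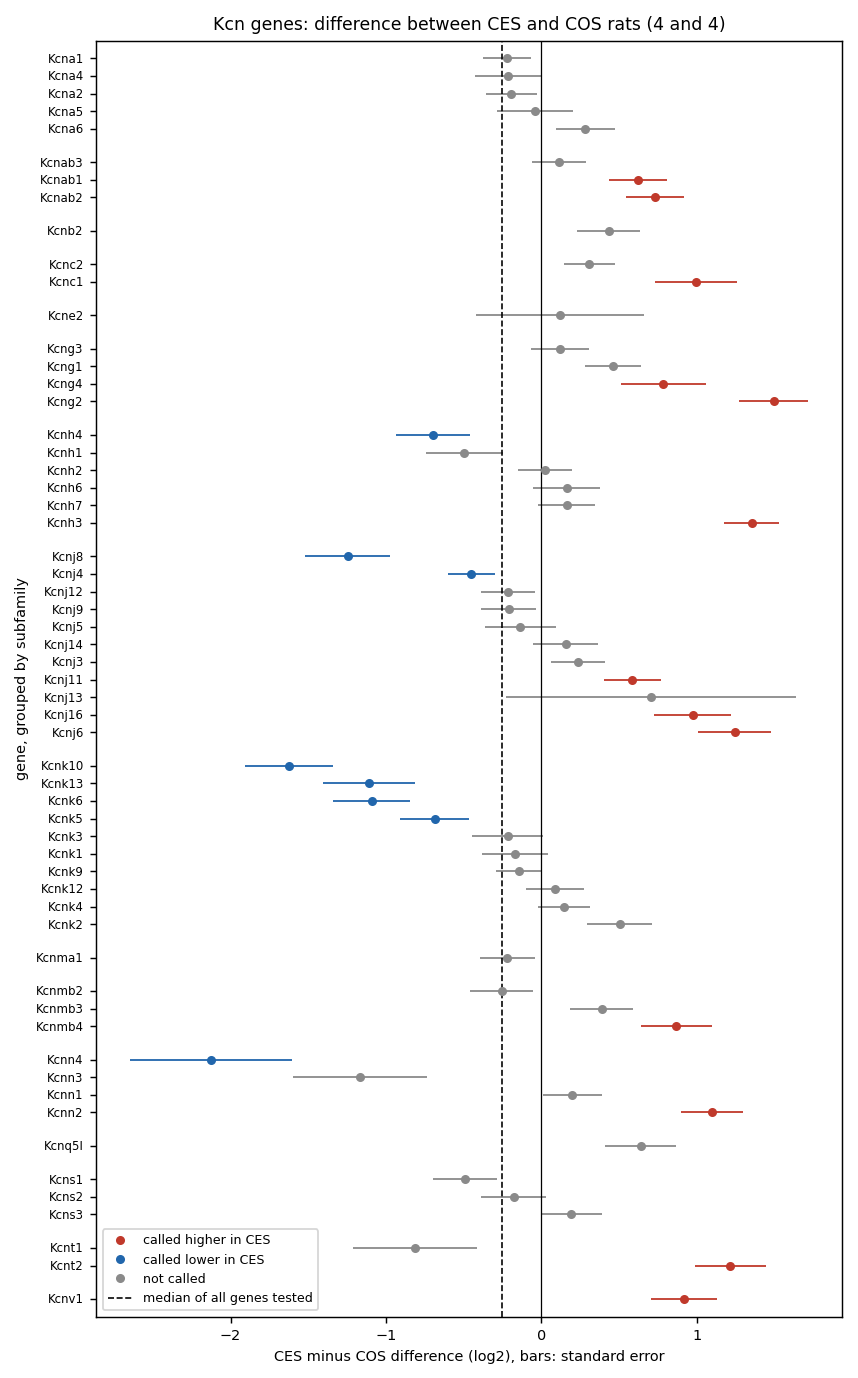
Difference of CES from COS in log2 units for 58 of the 61 Kcn genes tested, grouped by subfamily, with bars for the standard error; 0 is the solid line and the median of all genes, -0.25, the dashed line. Called genes are coloured: the 13 called higher lie to the right and the 8 called lower to the left. All 3 Kcnab and all 4 Kcng genes tested lie above 0, as do 6723 of all 21332 genes tested.

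The probes behind the largest calls show how firmly each gene was read. Kcng2 was read by 3 probes on rat chromosome 18 (build rn4, minus strand), and 2 of them share the 20 bases in capitals, so they are not independent readings.
Kcng2, chr18:77190650-77190709: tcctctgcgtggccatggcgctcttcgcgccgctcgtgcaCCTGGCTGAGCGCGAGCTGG
Kcng2, chr18:77190610-77190669: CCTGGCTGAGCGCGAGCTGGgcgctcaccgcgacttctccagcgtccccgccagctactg
The CES minus COS difference was 1.59 ± 0.34 (s.e. from the spread over 4 and 4 rats) at the first and 1.46 ± 0.35 at the second. At the third probe, chr18:77190293-77190352, which shares no base with these, it was 1.46 ± 0.38. The 3 readings of Kcng2 thus lay between 1.46 and 1.59. All probes read the same rats, so these standard errors do not measure agreement between probes.

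Kcnt2 was read by 2 probes far apart on chromosome 13 (plus strand), and the coordinates of the second run over 31119 bases for a probe of 60, so it joins sequence on both sides of at least 1 intron and reads spliced RNA.
Kcnt2, chr13:53681997-53682056: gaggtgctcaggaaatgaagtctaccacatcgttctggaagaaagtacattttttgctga
Kcnt2, chr13:53750125-53781243: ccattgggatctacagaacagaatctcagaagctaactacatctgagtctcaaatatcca
Their differences were 1.25 ± 0.43 and 1.18 ± 0.48, again read in the same rats. Each was well above background in only 2 COS rats, against 4 CES rats. Kcnq5l, which the array lists under an Ensembl transcript, was also read by 2 probes (chromosome 9, minus strand), and these did not give the same answer.
Kcnq5l, chr9:20182128-20182187: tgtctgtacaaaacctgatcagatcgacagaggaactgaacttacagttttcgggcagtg
Kcnq5l, chr9:20292202-20292261: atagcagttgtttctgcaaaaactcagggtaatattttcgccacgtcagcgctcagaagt
The first, which lies further along the transcript, was higher in CES by 0.94 ± 0.34 and the second differed by -0.07 ± 0.32. Both were well above background in all 8 rats.

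Kcnj3, the pore subunit shared by most G protein-gated inward rectifiers of the brain, had 3 probes on chromosome 3. The coordinates of 1 of them run in the descending order, opposite to the other two, so it appears to read the other strand.
Kcnj3, chr3:37256278-37256337, plus strand: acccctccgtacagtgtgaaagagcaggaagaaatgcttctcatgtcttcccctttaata
Kcnj3, chr3:37069228-37069287, minus strand: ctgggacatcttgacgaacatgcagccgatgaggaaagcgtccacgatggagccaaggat
The plus-strand probe shown was well above background in all 8 rats and differed by 0.24 ± 0.26. The other plus-strand probe was well above background in only 1 COS rat and 2 CES rats and differed by -0.09 ± 0.65. The minus-strand probe was well above background in no rat and valid in only 2, so the level of Kcnj3 rests on the plus-strand probes. In all, 12 of the 80 genes had more than 1 probe. Kcnk6 was lower by -1.19 ± 0.30 at a probe well above background in all rats and differed by -0.08 ± 0.65 at a probe that no COS rat and 2 CES rats showed above background. For Kcnab1 the probes differed by 0.66 ± 0.18 and 0.16 ± 0.27, and for Kcnma1 by 0.06 ± 0.38 and -0.30 ± 0.27. The second probe of Kcnj6 was valid in 2 rats only and was not used.

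**Figure D2:**
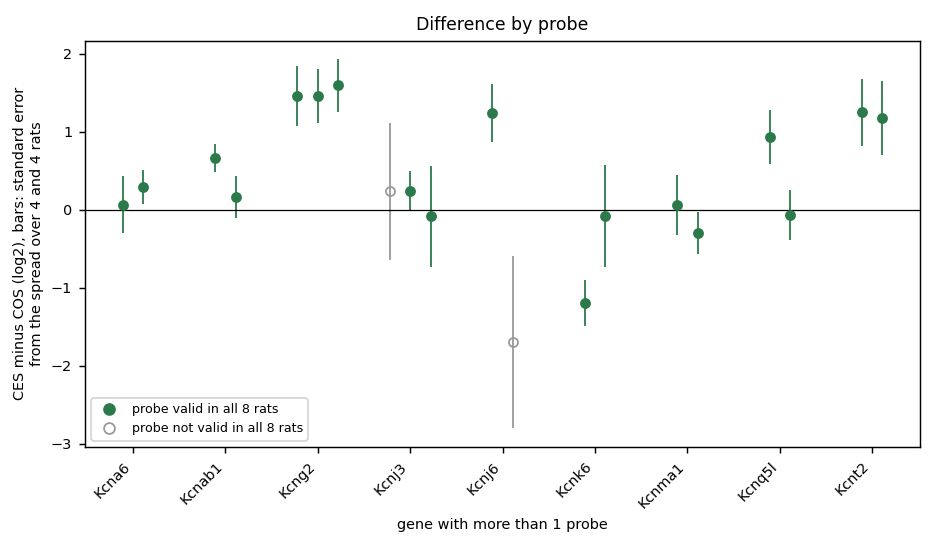
Difference of CES from COS in log2 units for each probe of 9 of the genes with more than 1 probe, with bars for the standard error from the spread over 4 and 4 rats; open grey points are probes not valid in all 8 rats. The 3 Kcng2 and 2 Kcnt2 probes lie together above 1, while the 2 probes of Kcnq5l and of Kcnk6 lie 1.00 and 1.11 apart.

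Among the pore-forming voltage-gated subunits, Kcnc1 and Kcnh3 were higher in CES and the Kcna genes differed little. Kcnh3 encodes an Elk subunit of the ether-à-go-go family found in forebrain principal neurons, where it opens near rest and restrains firing. Its level was 1.60, 1.19, 1.59 and 0.91 in COS rats 1 to 4 and 2.98, 2.04, 3.06 and 2.64 in CES rats 1 to 4. The groups did not overlap, and CES rat 2 was closest to the COS rats. The difference was 1.35 ± 0.18 (s.e., adjusted p = 0.0036), a 2.55-fold higher level, and 1.49 without CES rat 2. Its close relative Kcnh4 was lower, by -0.70 ± 0.24 (adjusted p = 0.047), with overlapping values, a signal clear of background in only 1 COS rat and 2 CES rats, and a difference of -0.48 after loess, where it was not called. Kcnh1, an ether-à-go-go subunit, differed by -0.50, and the ERG subunit genes Kcnh2, Kcnh6 and Kcnh7 by 0.02 to 0.16, none of them called.

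Kcnc genes encode the rapidly opening and closing channels that let neurons such as basket cells fire at high rates. Kcnc1 was at 0.92, 0.27, 0.51 and -0.04 in COS rats 1 to 4 and at 1.55, 0.45, 1.93 and 1.71 in CES rats 1 to 4. CES rat 2 lay within the COS range, and the other 3 CES rats above it. The difference was 0.99 ± 0.27 (adjusted p = 0.019), and 1.25 without CES rat 2. Kcnc2 differed by 0.31 ± 0.17 and was not called. Kcnc1 and Kcnc2 were both called higher after loess.

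Kcna genes encode the low-threshold channels of axons, and loss of Kcna1 causes seizures in rodents. Kcna1 was at 6.54, 6.65, 6.90 and 6.57 in COS rats 1 to 4 and at 6.43, 6.40, 6.53 and 6.40 in CES rats 1 to 4. All CES values lay below all COS values, but the difference of -0.22 ± 0.15 was not called (adjusted p = 0.29), lay 0.03 above the median of all genes, and was 0.14 after loess. The other Kcna genes tested differed by -0.21 (Kcna4), -0.19 (Kcna2), -0.04 (Kcna5) and 0.28 (Kcna6), none called. Kcnb2, a somatic delayed rectifier, differed by 0.43 without a call. In Kcnb2 no COS rat and 2 CES rats were well above background, so no fold is given. Of the Kcnq genes, which carry the M-current that muscarinic receptors close, Kcnq5l differed by 0.64 ± 0.23 (adjusted p = 0.055), or 0.80 (adjusted p = 0.016) without CES rat 2.

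The silent subunits of the Kcng, Kcns and Kcnv families form no channel alone and join Kcnb subunits to alter their gating. All 4 Kcng genes lay above 0 in CES, 2 of them called. Of all 21332 genes tested, 6723 lay above 0 and 5.8% were called higher. Kcng2 was at 0.20, -0.09, 0.39 and -0.51 in COS rats 1 to 4 and at 1.69, 0.65, 2.09 and 1.54 in CES rats 1 to 4. The groups did not overlap, and CES rat 2 was the lowest CES rat. Its difference of 1.49 ± 0.22 (adjusted p = 0.0039), or 2.81-fold, was the largest rise among the genes described here, and it was 1.69 without CES rat 2. Kcng4 was called higher (0.78 ± 0.27, adjusted p = 0.048), but no COS rat and 2 CES rats were well above background. The mean of the CES rats was 1.47-fold above the background bound of COS, a value that leaves out the spread between rats. Over the settings the difference ran from 0.19 to 1.18, and the call was lost in 13 of 21 alternatives. Kcng1 and Kcng3 differed by 0.46 and 0.12.

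Kcnv1, a silent subunit of neurons, was at 2.91, 2.71, 3.68 and 2.62 in COS rats 1 to 4 and at 3.98, 3.40, 4.26 and 3.95 in CES rats 1 to 4. CES rat 2 fell below COS rat 3, and the remaining CES rats lay above all COS rats. The difference was 0.92 ± 0.21 (adjusted p = 0.011), a 1.89-fold rise. The Kcns genes did not share it: Kcns3 was at 1.87, 1.83, 2.06 and 1.38 in the COS rats and at 2.04, 1.45, 2.34 and 2.08 in the CES rats, a difference of 0.19 ± 0.20, and Kcns1 and Kcns2 differed by -0.49 and -0.18, none called.

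The auxiliary subunits of voltage-gated channels are the Kcnab proteins, cytoplasmic β subunits that bind Kcna channels, and the small membrane Kcne proteins. Kcnab1 was at 2.22, 2.42, 2.97 and 2.23 in COS rats 1 to 4 and at 3.24, 2.91, 3.15 and 3.03 in CES rats 1 to 4, with CES rat 2 just below COS rat 3. It was higher by 0.62 ± 0.19 (adjusted p = 0.031). Kcnab2 was higher by 0.73 ± 0.19 (adjusted p = 0.016), from levels between -0.49 and 0.49 in COS to levels between 0.13 and 1.17 in CES. Kcnab3 differed by 0.11 and was not called.

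Genes of the calcium- and sodium-activated channels moved in both directions. Kcnn2 encodes a small-conductance calcium-activated channel that produces the afterhyperpolarization of neurons. It was at 0.60, 0.11, 1.15 and 0.42 in COS rats 1 to 4 and at 1.84, 1.10, 2.05 and 1.70 in CES rats 1 to 4. Only CES rat 2 and COS rat 3 overlapped. The difference was 1.10 ± 0.20 (adjusted p = 0.0054), 2.14-fold, and 1.21 without CES rat 2. The probe of Kcnn2 covers 6038 bases of the genome, so it too spans an intron.

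Kcnn4, the intermediate-conductance channel of blood cells and activated microglia, was called lower, but only 2 of the 4 CES rats were well above background, against all 4 COS rats, so the size of the fall is uncertain. It was at 1.69, 0.30, 1.24 and 0.46 in COS rats 1 to 4 and at -1.32, 0.38, -1.56 and -2.31 in CES rats 1 to 4. CES rats 1, 3 and 4 lay below every COS rat, and CES rat 2 lay among them. The difference was -2.13 ± 0.52 (adjusted p = 0.014) and -2.82 ± 0.19 without CES rat 2, and with all rats after loess it was -1.79 and not called (adjusted p = 0.086). Kcnn3 differed by -1.17 ± 0.43 (adjusted p = 0.061), from COS levels of -0.04 to 1.67 to CES levels of -1.06 to 0.76, where CES rat 2 was the highest. Leaving out that rat, the CES rat nearest to COS, widens a plain difference of means. Kcnn3 was then called lower (-1.65, adjusted p = 0.0014), which is no added support. Kcnn1 differed by 0.20.

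Kcnt2 encodes a sodium-activated channel. Its level was -1.33, -1.93, -0.83 and -1.97 in COS rats 1 to 4 and 0.15, -1.29, 0.22 and -0.27 in CES rats 1 to 4. CES rat 2 lay within the COS range and the other 3 above it. The difference was 1.22 ± 0.23 (adjusted p = 0.0057), and 1.43 without CES rat 2. Only 2 of the 4 COS rats were well above background, against all 4 CES rats, so the size of the rise is uncertain. Over the settings it ran from 0.54 to 1.68. Kcnt1, which encodes the other sodium-activated channel, differed by -0.81 ± 0.40, with COS levels spread from -0.55 to 1.97, and was not called (adjusted p = 0.14).

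BK channels, opened by calcium and voltage, are built from Kcnma1 with Kcnmb β subunits. Kcnmb4, the β subunit of neurons, was at 3.32, 3.22, 3.66 and 3.07 in COS rats 1 to 4 and at 4.14, 3.49, 4.73 and 4.39 in CES rats 1 to 4. CES rat 2 fell below COS rat 3 and the other CES rats lay above all COS rats. The difference was 0.87 ± 0.23 (adjusted p = 0.019), and 1.06 without CES rat 2. The pore gene Kcnma1 differed by -0.22 ± 0.18 and was not called. Kcnmb2 differed by -0.26 and was not called. Kcnmb3 was above background in no COS rat and was not called, and its CES mean was 1.04-fold above the background bound of COS.

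**Figure D3:**
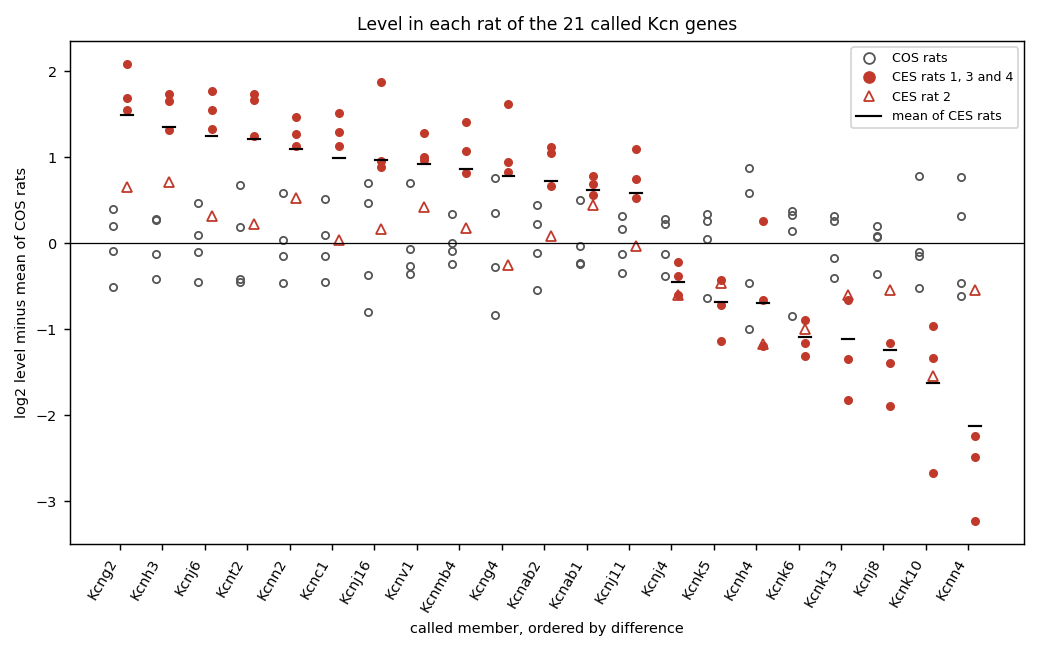
Log2 level in each rat minus the mean of the 4 COS rats for the 21 called Kcn genes, ordered by the difference; open circles are COS rats, filled circles CES rats 1, 3 and 4, the open triangle CES rat 2 and the black line the mean of the CES rats. In all 13 genes called higher the triangle is the lowest CES point.

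The inward rectifiers held genes of both directions, and the G protein-gated group was not uniform. Kcnj6 encodes the subunit that with Kcnj3 forms the channel through which GABA-B, adenosine and serotonin receptors inhibit principal neurons. Its level was 1.89, 1.33, 2.25 and 1.68 in COS rats 1 to 4 and 3.34, 2.11, 3.55 and 3.12 in CES rats 1 to 4. Only CES rat 2 came below a COS rat. The difference was 1.24 ± 0.24 (adjusted p = 0.0058), a 2.37-fold rise, and 1.47 without CES rat 2.

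Its partners were not called. Kcnj3 was at 2.45, 2.13, 2.90 and 1.87 in COS rats 1 to 4 and at 2.80, 2.20, 2.80 and 2.49 in CES rats 1 to 4, a difference of 0.23 ± 0.17 (adjusted p = 0.32). Kcnj9, a further subunit of the neuronal channel, was at 0.05, -0.30, 0.10 and -0.94 in the COS rats and at -0.18, -0.91, 0.03 and -0.87 in the CES rats, a difference of -0.21 ± 0.18 (adjusted p = 0.39). Kcnj5, best known from the heart, was at 0.43, -0.17, 0.03 and -0.29 in the COS rats and at -0.33, -0.68, 0.53 and -0.08 in the CES rats, a difference of -0.14 ± 0.23 (adjusted p = 0.67). The groups overlapped in all 3 of these genes, and after loess Kcnj3 was called higher (0.56) while Kcnj5 (0.25) and Kcnj9 (0.17) were not.

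Of the strong inward rectifiers, which hold the resting potential near the potassium equilibrium, Kcnj4 was at 1.08, 0.73, 1.13 and 0.47 in COS rats 1 to 4 and at 0.63, 0.24, 0.48 and 0.25 in CES rats 1 to 4. CES rats 1 and 3 overlapped COS rat 4. The fall of -0.45 ± 0.15 (adjusted p = 0.045) was 0.20 below the median of all genes and was -0.05 and not called after loess. Kcnj14 was at 1.21, 1.05, 1.28 and 0.46 in the COS rats and at 1.37, 1.40, 1.14 and 0.72 in the CES rats, a difference of 0.16 ± 0.21 (adjusted p = 0.59). Kcnj12 differed by -0.22 without a call.

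ATP-sensitive channels close as ATP rises and combine an inward rectifier pore with a sulfonylurea receptor. The 2 pore genes went apart. Kcnj11, the pore of neurons, was higher by 0.58 ± 0.18 (adjusted p = 0.035), from COS levels of 1.26 to 1.92 to CES levels of 1.58 to 2.70. Kcnj8, the pore of pericytes and vascular smooth muscle, was at 2.35, 2.36, 2.47 and 1.91 in COS rats 1 to 4 and at 0.87, 1.73, 1.12 and 0.38 in CES rats 1 to 4. All CES rats lay below all COS rats. The fall was -1.25 ± 0.27 (adjusted p = 0.0095), or -1.55 without CES rat 2, and after loess it was -0.86 and not called (adjusted p = 0.057). Among 4 pericyte markers, Pdgfrb (-1.25) and Cspg4 (-0.65) were also lower, Rgs5 was higher (0.79) and Anpep differed by 0.15, and the log2 of their summed level ran from 4.02 to 4.73 in COS and from 3.58 to 4.34 in CES. The part of these cells in the fall of Kcnj8 was not tested, and in tissue RNA fewer cells of a type and less RNA per cell cannot be told apart. The receptor genes were Abcc8, partner of Kcnj11 in neurons, higher by 0.95 ± 0.18 (adjusted p = 0.0058), and Abcc9, partner of Kcnj8, which differed by -0.44 ± 0.22 and was not called.

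Kcnj16, whose subunit joins that of Kcnj10 in astrocytes, was higher by 0.97 ± 0.25 (adjusted p = 0.016), from COS levels of -2.07 to -0.58 to CES levels of -1.10 to 0.60. The probe of Kcnj10 itself was well above background in no rat. Of 7 astrocyte markers, Aldh1l1 (1.23), Gja1 (1.27) and Gjb6 (2.27) were higher and Gfap (-1.19), Aqp4 (0.04), Slc1a2 (0.31) and Slc1a3 (-0.07) were not called, with a log2 summed level of 7.44 to 7.62 in COS and 7.30 to 7.98 in CES, and the part of astrocytes in the rise of Kcnj16 was not tested. Kcnj13 and Kcne2, both chosen after their values were seen, are known from the choroid plexus, and they varied between rats more than between groups. Kcnj13 was at -1.21, 2.36, -0.63 and -3.14 in COS rats 1 to 4 and at -0.41, 0.34, -1.19 and 1.45 in CES rats 1 to 4, a difference of 0.70 ± 0.93, which was 1.69 without COS rat 2 and -0.51 without COS rat 4. Kcne2 was at -1.60, -0.42, -1.85 and -3.18 in the COS rats and at -1.54, -2.49, -1.81 and -0.75 in the CES rats, a difference of 0.12 ± 0.54, which was 0.66 without COS rat 2 and -0.42 without COS rat 4. The highest COS rat in both was rat 2 and the lowest rat 4, and the highest CES rat was rat 4.

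Ttr, the defining transcript of the choroid plexus, was at 4.18, 9.22, 5.48 and 3.57 in COS rats 1 to 4 and at 5.63, 7.55, 3.80 and 7.55 in CES rats 1 to 4. The log2 summed level of the 4 of 6 choroid plexus markers that could be tested ran from 3.73 to 9.26 in COS and from 3.97 to 7.58 in CES, and none of the 4 was called. COS rat 2 had the highest level of all 4 of these markers, of Kcnj13 and of Kcne2 among the 8 rats, and COS rat 4 the lowest. The part of choroid plexus tissue in the spread of Kcnj13 and Kcne2 was not tested.

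**Figure D4:**
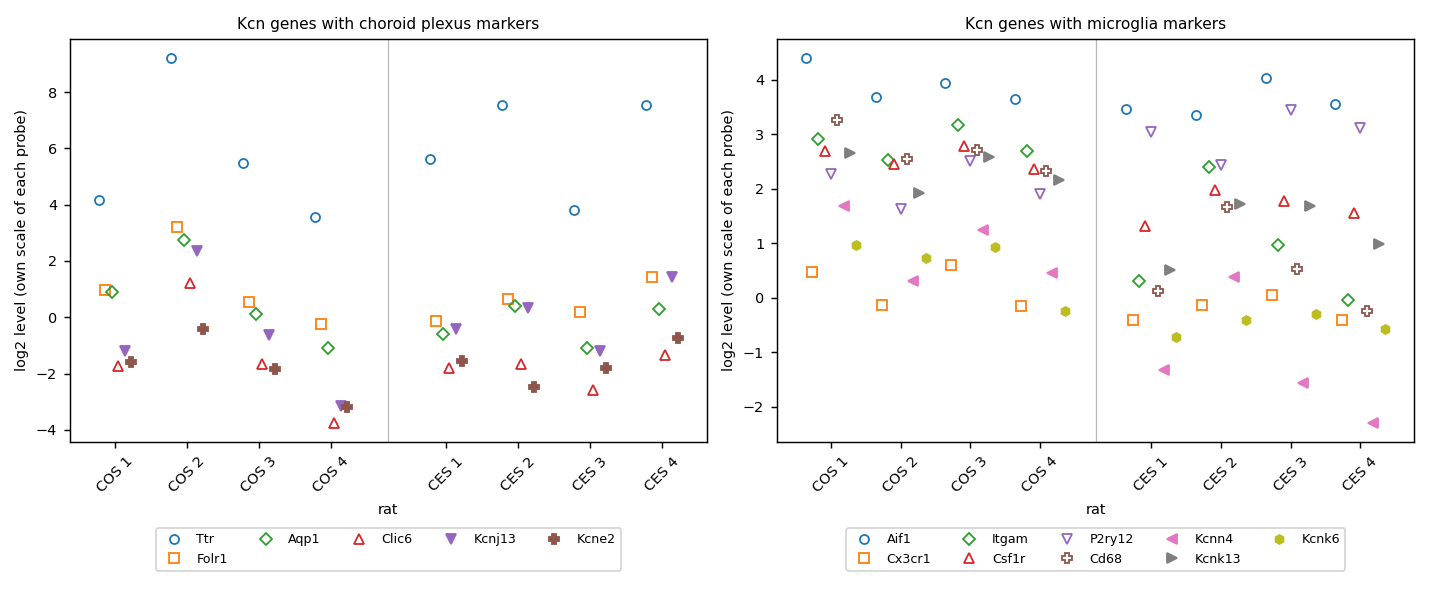
Log2 level in each rat of Kcnj13 and Kcne2 with the 4 choroid plexus markers tested (left) and of Kcnn4, Kcnk13 and Kcnk6 with the 6 microglia markers (right); open symbols are markers and filled symbols Kcn genes. COS rat 2 is highest in all 6 genes on the left, and on the right CES rat 2 is the highest CES rat for Cd68, Itgam, Csf1r, Kcnn4 and Kcnk13 and the lowest for Aif1 and P2ry12.

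The tandem-pore genes (Kcnk) carry the leak current, and 4 of 10 genes tested were called lower and none higher, where 28.3% of all genes were called lower. After loess only Kcnk10 was called lower, and Kcnk2 (0.87) and Kcnk12 (0.48) were called higher. Kcnk10, a TREK subunit opened by stretch, heat and fatty acids, was at 0.02, -0.03, 0.91 and -0.40 in COS rats 1 to 4 and at -0.83, -1.42, -1.20 and -2.54 in CES rats 1 to 4. Every CES rat lay below every COS rat, and CES rat 2 lay within the CES range. The fall was -1.63 ± 0.28 (adjusted p = 0.0049) and was still called after loess (-1.29). All 4 COS rats but only 2 CES rats were well above background, so its size is uncertain. In the same subfamily Kcnk2, the related TREK gene, differed by 0.50 ± 0.21 (adjusted p = 0.091) and Kcnk4 by 0.14, neither called.

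Kcnk13, the THIK subunit that carries the resting potassium current of microglia, was at 2.66, 1.93, 2.59 and 2.16 in COS rats 1 to 4 and at 0.51, 1.73, 1.68 and 0.99 in CES rats 1 to 4. The groups did not overlap, with CES rat 2 just below COS rat 2. The fall was -1.11 ± 0.30 (adjusted p = 0.019), -1.34 without CES rat 2, and -0.73 and not called after loess. Kcnk6, a TWIK subunit known from macrophages, was at 0.97, 0.74, 0.92 and -0.25 in COS rats 1 to 4 and at -0.72, -0.41, -0.30 and -0.57 in CES rats 1 to 4. COS rat 4 came close to the CES rats but did not overlap them. The fall was -1.09 ± 0.25 (adjusted p = 0.011), and after loess -0.73 and not called. Kcnk5, a TASK-related gene, was lower by -0.69 ± 0.22 (adjusted p = 0.037), and after loess differed by -0.30 without a call. The other Kcnk genes tested, Kcnk1, Kcnk3, Kcnk9 and Kcnk12, differed by -0.22 to 0.09.

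Of 6 microglia markers, Cd68 (-2.19), Itgam (-1.92) and Csf1r (-0.92) were lower in CES, P2ry12 was higher (0.93), and Aif1 (-0.32) and Cx3cr1 (-0.43) were not called. Their log2 summed level ran from 5.08 to 5.68 in COS and from 4.64 to 5.14 in CES. After loess only Cd68 was still called lower (-1.80), P2ry12 was still called higher (1.29), and Itgam (-1.54, adjusted p = 0.078) and Csf1r (-0.54, adjusted p = 0.060) were not called. Among the CES rats, rat 2 had the highest Cd68, Itgam, Csf1r, Kcnn4 and Kcnk13 and the lowest Aif1 and P2ry12. The part of microglia in the falls of Kcnn4, Kcnk13 and Kcnk6 was not tested.

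Markers of neurons also moved. Of the granule cell markers, Neurod1 (1.16) and Neurod2 (1.11) were higher in CES, Calb1 (-0.28) and Ncdn (0.41) were not called, Prox1 was well above background in no rat and Rbfox3 was not found among the array names. Their log2 summed level ran from 4.80 to 5.64 in COS and from 5.40 to 6.57 in CES. Neurod1 was at 2.60 in CES rat 2 and from 3.31 to 3.71 in CES rats 1, 3 and 4. Calb1 was at 2.40 in CES rat 2 and from 2.32 to 3.12 in CES rats 1, 3 and 4. Of 6 interneuron markers, Sst (-1.56) and Npy (-1.84) were called lower and none was called higher. Gad1 (-0.57), Gad2, Slc32a1 and Pvalb were not called. By direction alone 5 lay lower in CES and 1 higher (by 0.51), and after loess 1 was called higher and 1 lower. Their log2 summed level was 8.39 to 9.08 in COS and 6.76 to 8.24 in CES. This sum weighs the brightest genes most, and Gad1 alone ran from 2.65 to 3.35 in COS and from 2.24 to 2.79 in CES. Of 4 markers of CA pyramidal cells, Fibcd1 (0.99) and Wfs1 (0.98) were higher and Man1a1 (-1.25) was lower, with log2 summed levels of 3.54 to 3.92 in COS and 3.51 to 4.16 in CES. None of 6 oligodendrocyte markers was called (log2 summed level 7.80 to 8.66 in COS, 8.23 to 8.86 in CES), and of the 4 endothelial markers tested Flt1 (-1.04) and Tek (-0.81) were lower and Slco1a4 (0.72) higher (4.28 to 4.68 in COS, 4.09 to 4.63 in CES). The part of the mix of cells in the Kcn differences was not tested.

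Genes whose products work with these channels were taken from lists of partners and of the sodium pump. Of 24 genes for channel partners, 19 were tested, and their median difference was -0.22, near the -0.25 of all genes. Higher in CES were Abcc8, Amigo2 (0.95), of the AMIGO family that binds Kcnb channels, and Ank2 (0.56), an ankyrin. Lower were Sgk1 (-1.46), a kinase that raises channel number at the membrane, Snx27 (-0.77), which sorts G protein-gated rectifiers, and Dlg1 (-0.61), a scaffold of Kcna and Kcnj channels. Of 7 genes for the Na,K-ATPase, which restores the potassium gradient, 6 were tested with a median of 0.42, the β subunit gene Atp1b2 was higher (0.72) and Atp1b3 lower (-0.997). The A-type genes, KChIP genes and Kcnj10 numbered 8, all tested, with a median of 0.28 against 0.12 for the 61 genes described here, and Kcnd2 (1.36), Kcnip2 (0.80) and Kcnip4 (1.22) were higher. No test of the difference between these groups of genes was made.

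RefSeq promoter windows (assembly GRCr8, 250 bases before to 50 after the start) numbered 57 and belonged to 52 of the 80 genes. The estrogen response element (GGTCA and TGACC with 3 free bases between them) was in none of the 57 windows and in 0.0269% of all 33469 windows, searched on both strands. The AP-1 letters TGANTCA were in 3 of the 57 windows (5.26%), those of Kcne1, Kcnj1 and Kcnj16, and in 7.33% of all windows, and the cAMP response element TGACGTCA was in none of the 57 and in 1.83% of all. GC boxes (GGGCGG) were in 47.4% of the 57 windows and 33.1% of all. A match describes letters in this window only.

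The calls differed in how they held when the processing was changed. Kcng2 and Kcnh3 were called under 22 of 23 alternatives, the exception being the t-test of the methods, under which no gene passed adjustment. That adjustment was Benjamini-Hochberg over all genes. The study instead corrected for redundant spots of a gene and used a fold-change cut-off, which were not applied here. Kcnj6 and Kcnn2 were called under 21 of 23 and Kcnt2 and Kcnk10 under 20 of 22, lost with normexp background correction and with that t-test. At the other end Kcnj4 was called under 8 of 23, Kcnk5 under 8 of 22, and Kcng4 and Kcnh4 under 8 of 21. No called gene changed direction under any alternative.

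**Figure D5:**
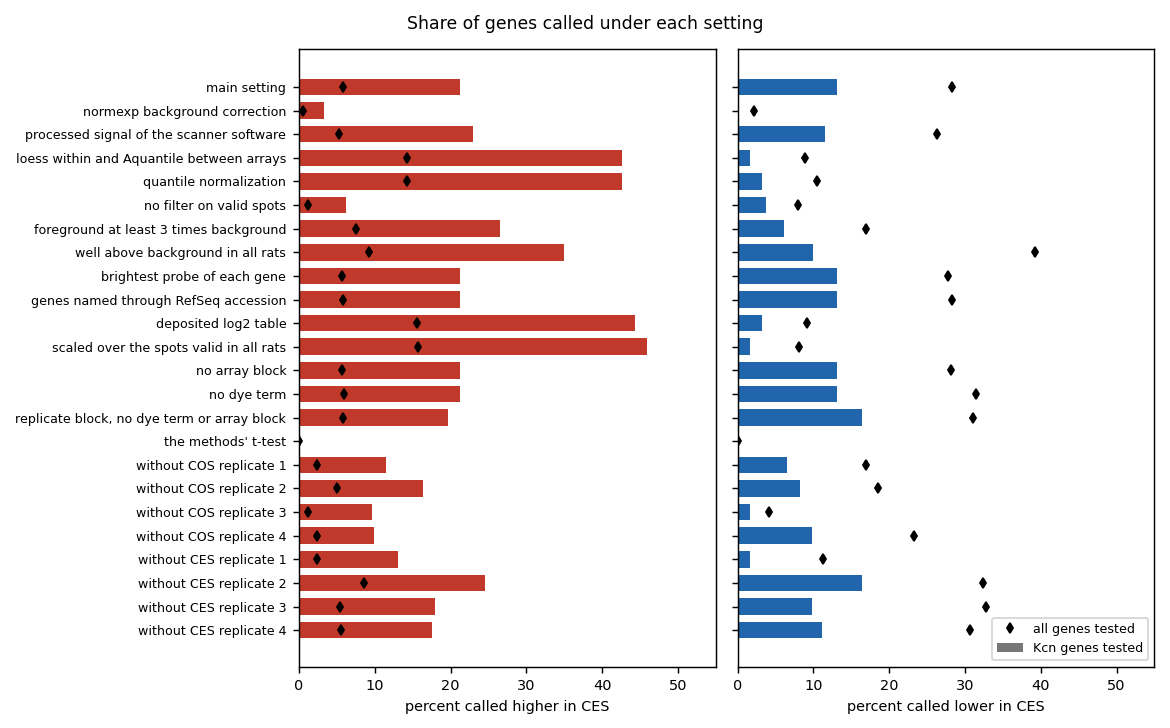
Percent of Kcn genes tested (bars) and of all genes tested (diamonds) called higher (left) or lower (right) in CES under the main setting and 23 alternatives. In every setting but the t-test of the methods, the bars for higher exceed the diamonds and the bars for lower stay below them. With that t-test no gene is called after adjustment over all genes.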

How the data were processed

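Arrays were Agilent rat 2-colour arrays, 2 rats of a group per array, 4 arrays on 1 slide. The authors deposited scanner intensity values from Agilent Feature Extraction 10.7.3.1 and a table of log2 values, which here equalled log2 of the median signal minus background plus a constant. Spots with a mean foreground at least 2 times the background median were valid, and genes kept the array's names. The signal minus background was divided by the channel median over valid spots, averaged over spots valid in all 8 rats, and fitted by limma 3.58.1 (R 4.3.3, statmod 1.5.0) with dye as a fixed term and array as a random block, with Benjamini-Hochberg adjustment over 21332 genes. The estimated correlation within arrays was -0.0064, so the block did little and the p-values treat the 8 rats nearly as independent. Without the block the counts were again 13 higher and 8 lower (5.73% and 28.1% of all genes). With normexp background correction the correlation was 0.573 and the counts were 2 and 0 (0.577% and 2.13% of all genes). Arrays are nested in groups, so array and group cannot be told apart. Scripts were tested on simulated data.

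The Kcn genes, lists and tests were chosen with earlier results of these data known. Genes given rat by rat were those called with groups that did not overlap, Kcnj3, Kcnj4, Kcnj5, Kcnj6, Kcnj9 and Kcnj14, and, in subfamilies of at least 3 tested genes without such a gene, the gene of the highest mean level. The remaining called genes are named singly, some of them rat by rat, and genes not called were chosen after their values were seen. Deviations from the group mean correlated at 0.209 to 0.335 between rats of the same number, but the number goes with the dye, and rats of the same dye and another number correlated at 0.208 to 0.437.

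Alternatives changed the background correction, scaling, filter, probe, gene naming, test terms and rats. Scaling each channel over those spots that were valid in every rat was added after seeing the data. Probe coordinates are those of the files (rn4). Results for some genes are not reported here.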

Additional observations from a re-analysis of the deposited data

Results flagged for a closer look

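In 2 of 116 groups of 4 rats, 1 rat lay far from the other three, where chance gives about 1 in 20. For Kcnmb2 in CES, rat 1 was at 0.15 and the others between -0.29 and -0.23, a gap of 0.878 of the group's range. For Kcnq5l in COS, rat 3 was at 0.98 and the others between 0.02 and 0.17, a gap of 0.845 of the range. Neither gene was called.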

How the results depend on the processing

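Of the Kcn genes tested, 13 were called higher and 8 lower. Higher and lower calls were 2 and 0 with normexp background correction (8 and 4 at an unadjusted p under 0.05), 26 and 1 after loess and Aquantile, 26 and 2 after quantile normalization, 27 and 2 in the deposited log2 table, 28 and 1 when each channel was scaled over the spots valid in every rat, and 5 and 3 without the filter on valid spots. Lower calls were 3 with a foreground at least 3 times background and 4 with spots well above background in all rats. The t-test of the methods, adjusted here over all genes, gave 0 and 0 (8 and 6 before adjustment, against 17 and 10 with limma). With the replicate number as a block the counts were 12 and 10 (5.82% and 31.1%), and the block changed no other count by over 1.5 times. Leaving out 1 rat gave 6 to 15 higher and 1 to 10 lower, and the shares of all genes moved as well. The counts were 7 and 4 without COS rat 1 (2.38% and 16.9%) and 10 and 5 without COS rat 2 (5.04% and 18.5%). They were 6 and 1 without COS rat 3 (1.16% and 4.14%) and 6 and 6 without COS rat 4 (2.43% and 23.2%). They were 8 and 1 without CES rat 1 (2.38% and 11.3%). Without CES rat 3 they were 11 and 6 (5.37% and 32.8%), and without CES rat 4 they were 11 and 7 (5.53% and 30.7%). The cause of these changes was not tested.

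Direction changed only in genes that were not called. After loess and Aquantile the difference was 0.14 for Kcna1 and Kcna2, 0.16 for Kcna4, 0.17 for Kcna5, 0.15 for Kcnj12, 0.25 for Kcnj5, 0.17 for Kcnj9, 0.22 for Kcnk1, 0.26 for Kcnk9, 0.16 for Kcnma1, 0.13 for Kcnmb2 and 0.0882 for Kcns2. After quantile normalization these were 0.11 and 0.15, 0.17, 0.24, 0.16, 0.25, 0.17, 0.21, 0.26, 0.17, 0.12 and 0.0858. The deposited table gave 0.10 for Kcna1, 0.13 for Kcna2, 0.18 for Kcna4, 0.32 for Kcna5, 0.14 for Kcnj12, 0.23 for Kcnj5, 0.16 for Kcnj9, 0.18 for Kcnk1, 0.16 for Kcnk3, 0.26 for Kcnk9, 0.15 for Kcnma1, 0.13 for Kcnmb2 and 0.21 for Kcns2. The scaling over spots valid in every rat gave, in that order, 0.18, 0.20, 0.19, 0.36, 0.18, 0.26, 0.19, 0.23, 0.18, 0.25, 0.18, 0.14 and 0.22. Normexp gave -0.0338 for Kcng3 and -0.0581 for Kcnh6, and the processed signal 0.17 for Kcna5, -0.0854 for Kcnab3 and -0.13 for Kcnk12. Leaving out each rat in turn moved Kcna5 from -0.23 to 0.19, Kcnab3 from -0.00745 to 0.23, Kcne2 from -0.42 to 0.66, Kcng3 from -0.0291 to 0.22, Kcnh2 from -0.0818 to 0.14, Kcnj13 from -0.51 to 1.69, Kcnj14 from -0.00988 to 0.31, Kcnj5 from -0.38 to 0.0167 and Kcnk12 from -0.0154 to 0.20.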
